A study of Caenorhabditis elegans with 12 samples.

Results

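The comparison described here asked what the itr-1 mutation changes in animals whose respiratory chain is already impaired. Whole fourth-stage (L4) larvae of the nematode Caenorhabditis elegans that carry both nuo-6(qm200) and itr-1(sa73) were set against larvae that carry nuo-6(qm200) alone, with 3 libraries of polyadenylated RNA in each group. Every gene with at least 1 TPM in at least 3 of these 6 libraries was tested, which kept 14859 of the 46926 genes in the table. TPM is a length-corrected measure of a transcript's share of its library. Of the genes tested, 132 reached the minimum through the libraries of 1 group alone, 103 of them through the double mutant and 29 through nuo-6. Such a gene had to differ between the groups to be tested, so its p-value adds nothing to its levels, and it is marked where it is named.

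The double mutant has the genotype nuo-6(qm200); itr-1(sa73), and its comparison strain carries nuo-6(qm200) in a wild-type itr-1 background. The strain itr-1(sa73), with a wild-type nuo-6 gene, and the laboratory wild type N2 gave the same itr-1 contrast without the nuo-6 allele. All 4 strains were bleach-synchronised and grown on HT115 E. coli that carried the empty RNAi vector, so by the labels they differ in genotype alone. The labels call the 3 libraries of a strain biological replicates and name 1 strain per genotype, so an unlabelled background mutation of a strain would be part of its genotype here. Whole animals were sequenced, and the values average over all tissues.

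ITR-1 is the worm's inositol trisphosphate (InsP3) receptor, a channel in the membrane of the endoplasmic reticulum. Phospholipase C at the cell surface makes InsP3 from a membrane lipid, InsP3 opens the channel, and calcium leaves the store for the cytosol and for mitochondria held close to it. In worms this pathway is known for the rhythmic contractions of the defecation cycle, which start in the intestine, and for the contraction of the spermatheca and the pharynx. NUO-6 is a subunit of complex I, the first enzyme of the mitochondrial respiratory chain, and the qm200 allele is known for slow development and a long life. The study's title links the receptor to that long life through actomyosin and mitochondrial dynamics.

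All 6 libraries held 14639 to 14902 genes at 1 TPM or more. All 18 tissue markers examined, 3 each for muscle, pharynx, intestine, hypodermis, neurons and germ line, were present in every one of the 6 libraries. The double mutant libraries spread more than the nuo-6 libraries. To place each library in development, the log2(TPM + 1) values of 35 genes of oocytes and early embryos were averaged into a stage score. It was 4.97, 5.67 and 4.43 in the double mutant libraries and 4.61, 4.82 and 4.71 in the nuo-6 libraries. Double mutant replicate 2 therefore stood highest and replicate 3 lowest, with all nuo-6 libraries between them. In the other pair of strains the score was 5.05, 5.95 and 4.88 in itr-1 and 3.50, 4.30 and 3.70 in N2, so that the groups did not overlap there.

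Transcripts of the 2 mutated genes come first. For itr-1 itself (WBGene00002173, chromosome IV, 7675174 to 7696930, plus strand, WBcel235) the level was 32.3, 34.6 and 34.1 TPM in the double mutant, against 27.6, 30.3 and 33.1 TPM in nuo-6. The ranges overlapped, and the log2 fold of 0.15 ± 0.12 (SE, 3 libraries a group) had an adjusted p of 0.432 by limma, Benjamini-Hochberg adjusted across the 14859 genes. The nuo-6 gene (WBGene00012166, chromosome I, 7068116 to 7069186, minus strand) had 325, 288 and 314 TPM in the double mutant, against 374, 400 and 401 TPM in nuo-6. All 3 double mutant values lay below all 3 nuo-6 values, with a log2 fold of -0.34 ± 0.06 (adjusted p = 0.00251). Both alleles are known as changes of a single amino acid, so neither level checks the strain labels.

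In all, 2370 of 14859 genes changed at an adjusted p under 0.05, which is 15.9% of the genes tested. Of these, 1538 were higher in the double mutant (10.4%) and 832 were lower (5.6%). These 2 shares are the background for every count of list members below. The split depends on the scaling, since every library's TPM has the same sum. After median-of-ratios scaling 858 genes were higher (5.77%) and 1172 lower (7.89%), and after quantile normalization 1111 were higher and 1055 lower. The median log2 fold of all genes was 0.07 as deposited. Most differences were small, and 182 genes were at least 2-fold higher and 87 at least 2-fold lower among those called. The 2370 calls include 95 of the 132 genes that had reached the minimum through 1 group alone. The calls of those 95 genes add nothing to their levels. In 5954 genes, 40.1% of those tested, the 3 libraries of a group all lay on one side of the 3 of the other group. The number of calls also rests on single libraries, falling to 1174 without nuo-6 replicate 3, 1281 without double mutant replicate 1, 1405 without nuo-6 replicate 2 and 1418 without double mutant replicate 3.

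**Figure D1:**
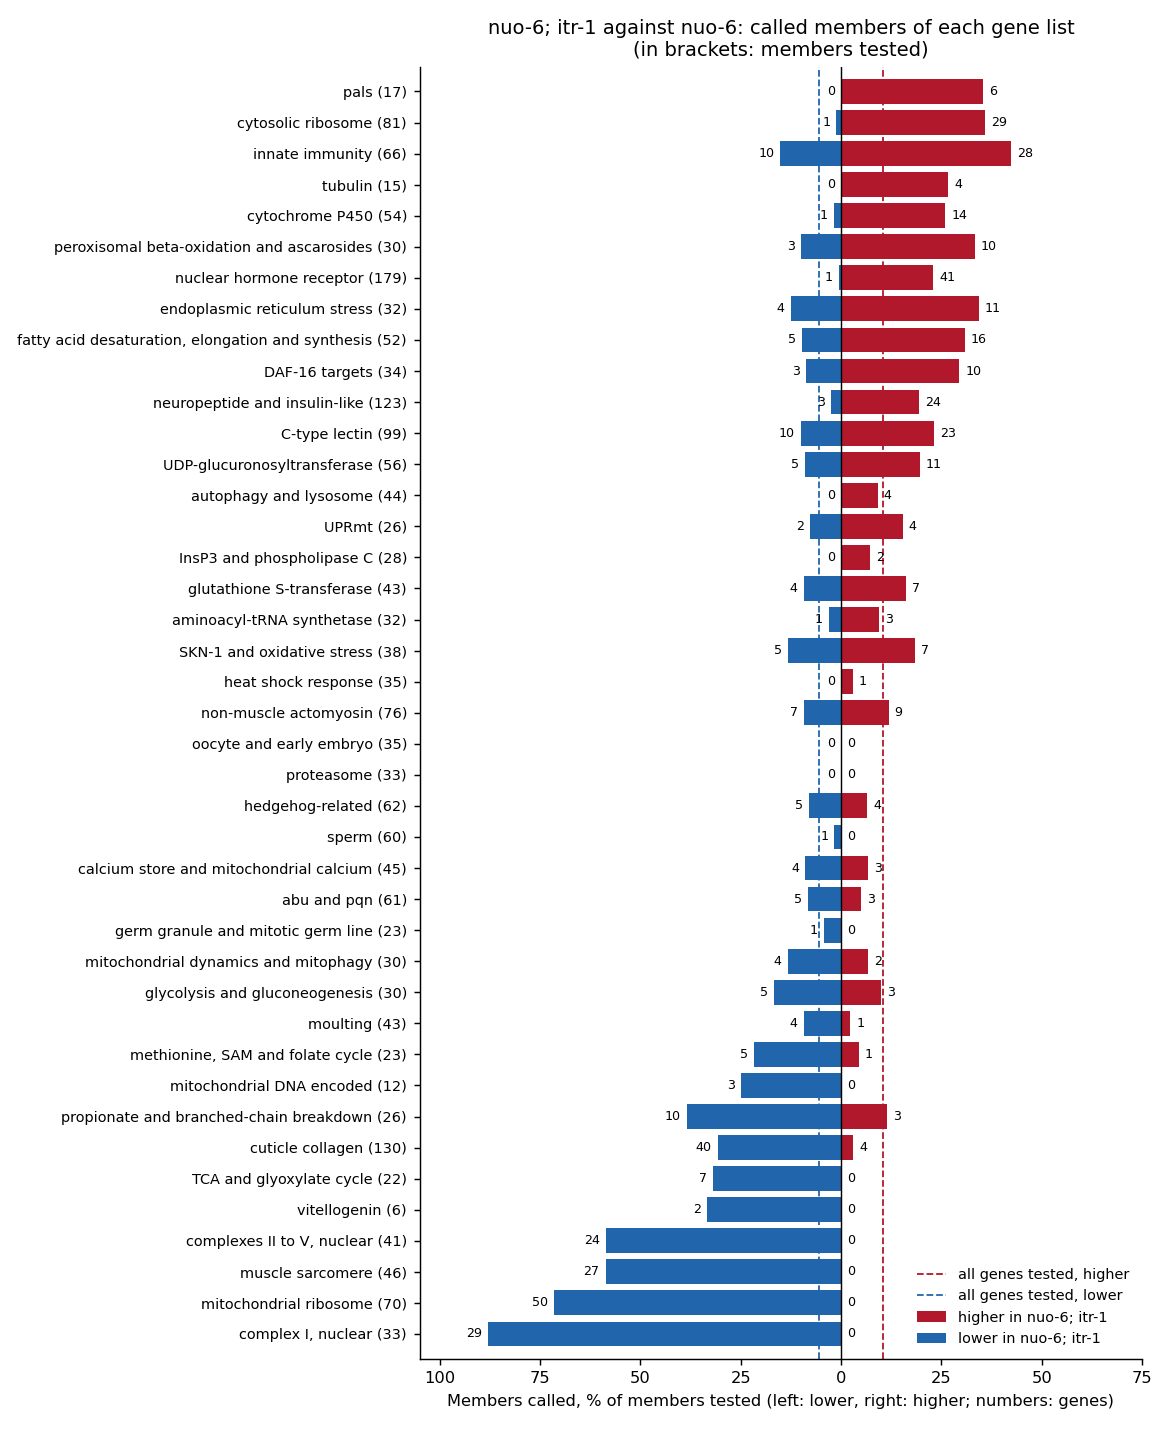
Share of the tested members of each gene list that changed between nuo-6; itr-1 and nuo-6, in percent, with bars to the right for members higher in the double mutant and to the left for members lower; the number of genes stands at each bar and dashed lines give the shares among all genes tested (10.4% and 5.6%). Complex I, the mitochondrial ribosome, muscle sarcomere and complexes II to V stand at the bottom, and the pals, cytosolic ribosome and innate immunity lists at the top.

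Complex I had the largest share of lower genes of all lists. Of 33 nuclear genes for complex I subunits and assembly factors, 29 were lower in the double mutant and 0 higher, against 5.6% lower among all genes. The median log2 fold of the 33 genes was -0.27, beside 0.07 for all genes tested. Together they made up 0.767% to 0.824% of the transcripts in the double mutant libraries and 0.974% to 0.987% in the nuo-6 libraries. In itr-1 their share was 0.699% to 0.724%, and in N2 0.781% to 0.783%. The nuo-6 libraries thus held the highest shares of the 4 strains, and the double mutant libraries lay below nuo-6, above itr-1 and around N2. After median-of-ratios scaling 30 of the 33 genes were lower, and with any 1 of the 6 libraries left out 25 to 29 were. At an unadjusted p under 0.05 limma also put 0 members of this list higher, and the same held for complexes II to V, mitochondrial DNA, the mitochondrial ribosome, the tricarboxylic acid cycle and the sarcomere.

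The subunit gene ndub-3 had 394, 381 and 386 TPM in the double mutant and 499, 513 and 528 TPM in nuo-6. Each double mutant value was more than 100 TPM under each nuo-6 value, and the log2 fold was -0.41 ± 0.04 (adjusted p = 0.00018). Another subunit gene, ndub-7, had 238, 226 and 240 TPM in the double mutant and 315, 310 and 323 TPM in nuo-6, a log2 fold of -0.43 ± 0.05 (adjusted p = 0.000268). The gene lpd-5, which also encodes a complex I subunit, had 246, 231 and 237 TPM in the double mutant and 304, 330 and 322 TPM in nuo-6. Its groups did not overlap, with a log2 fold of -0.42 ± 0.05 (adjusted p = 0.000294). The 4 members that did not pass the test were ndub-10 (log2 fold -0.14, called after median-of-ratios scaling at an adjusted p of 0.0368), nduf-2.2 (-0.10) and the assembly factors nuaf-3 (-0.12) and nuaf-1 (0.02).

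Complexes II to V carry the electrons on and make ATP. Of 41 nuclear genes for these complexes and their assembly, 24 were lower and 0 higher, with a median log2 fold of -0.20. The count was 29 after median-of-ratios scaling, 10 after quantile normalization, and 12 to 28 when single libraries were left out, with 12 without double mutant replicate 1 and 15 without nuo-6 replicate 2 or 3. The gene hpo-18, for the epsilon subunit of ATP synthase, had 845, 822 and 876 TPM in the double mutant and 1083, 1099 and 1224 TPM in nuo-6, with a log2 fold of -0.42 ± 0.06 (adjusted p = 0.00153). Its inhibitor gene mai-2 had 545, 524 and 596 TPM in the double mutant and 716, 717 and 764 TPM in nuo-6, and the log2 fold was -0.40 ± 0.06 (adjusted p = 0.00209). Groups did not overlap in either gene. None of the 4 succinate dehydrogenase genes of complex II, sdha-1, sdha-2, sdhb-1 and sdhd-1, passed the test, and their log2 folds lay between -0.08 and 0.03.

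Of the 12 protein genes of mitochondrial DNA, 3 were lower and 0 higher, with a median log2 fold of -0.31. These genes are transcribed inside the organelle, and their reads entered a polyA-selected library. The complex I subunit gene ND3 had 201, 167 and 169 TPM in the double mutant and 253, 270 and 260 TPM in nuo-6, and its log2 fold was -0.55 ± 0.09 (adjusted p = 0.00332). The cytochrome c oxidase genes COX2 and COX3 had log2 folds of -0.33 ± 0.08 and -0.21 ± 0.05 (adjusted p = 0.0143 and 0.0136). The 9 others did not pass the test, although the whole group took 2.38% to 2.46% of transcripts in the double mutant and 2.79% to 2.88% in nuo-6.

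Mitochondrial ribosomal protein genes make the organelle's own ribosomes. All 70 had a log2 fold below 0 and 50 were called lower, with a median of -0.26. After median-of-ratios scaling 60 were lower, and without nuo-6 replicate 3 the count was 24, without double mutant replicate 1 it was 25 and without nuo-6 replicate 2 it was 31. The small-subunit gene mrps-14 stood out with 113, 113 and 115 TPM in the double mutant against 175, 178 and 184 TPM in nuo-6. The values within each group differed by less than 10 TPM, and the log2 fold was -0.65 ± 0.04 (adjusted p = 6.34e-06). In itr-1 this gene had 80.1 TPM on average and in N2 89.9 TPM, and its difference between the comparisons was called. Of 81 cytosolic ribosomal protein genes 29 were higher and 1 lower as deposited, but 0 higher and 3 lower after median-of-ratios scaling, and 5 to 10 higher without nuo-6 replicate 2 or 3 or double mutant replicate 1 or 3.

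**Figure D2:**
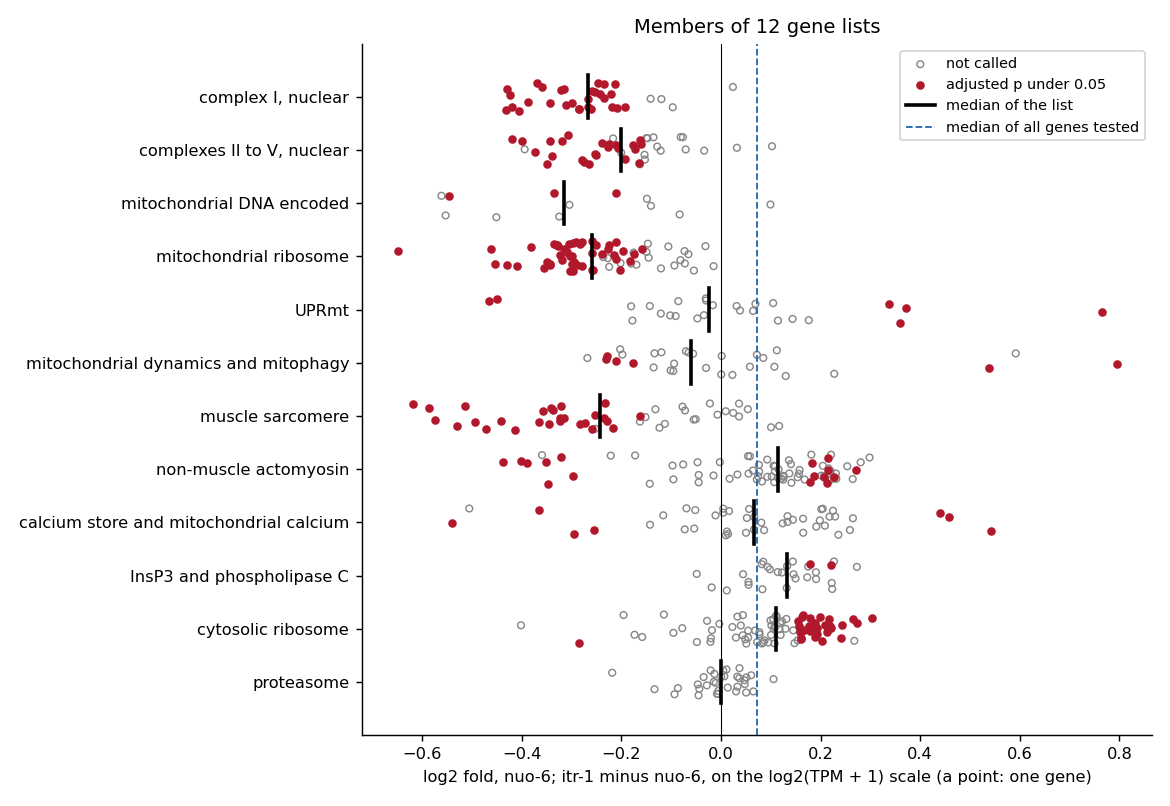
Log2 fold of each tested member of 12 gene lists, nuo-6; itr-1 minus nuo-6, on the log2(TPM + 1) scale, with filled points for genes at an adjusted p under 0.05, a black bar for the median of each list and a dashed line for the median of all genes tested (0.07). The points of complex I, the mitochondrial ribosome and the muscle sarcomere lie mostly left of 0, and those of the InsP3 list lie within 0.3 of 0.

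Genes of the mitochondrial stress response did not move as a block. The mitochondrial unfolded protein response (UPRmt) is a nuclear programme of chaperones, proteases and import factors switched on by the transcription factor ATFS-1 when mitochondrial protein import falters. Of 26 genes on this list 4 were higher and 2 lower, beside 10.4% higher and 5.6% lower among all genes. The median log2 fold was -0.02, and 2 members were higher without nuo-6 replicate 3 or without double mutant replicate 1. After median-of-ratios scaling 3 were higher and 4 lower. The chaperone gene hsp-6, the usual reporter of the response, had 481, 471 and 504 TPM in the double mutant and 455, 487 and 477 TPM in nuo-6, with overlapping groups and a log2 fold of 0.04 ± 0.06 (adjusted p = 0.693). The chaperonin gene hsp-60 had a log2 fold of 0.06 ± 0.06 (adjusted p = 0.483). After median-of-ratios scaling the log2 folds of hsp-6 and hsp-60 were -0.04 and -0.02, and neither passed the test. Between the pair of strains without the nuo-6 allele hsp-6 averaged 308 TPM in itr-1 and 283 TPM in N2.

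The 4 higher UPRmt genes were tbb-6, atfs-1, lonp-2 and hmg-5. The gene tbb-6, a beta-tubulin known to be induced by mitochondrial stress, had 195, 194 and 202 TPM in the double mutant and 124, 112 and 111 TPM in nuo-6. All double mutant values exceeded all nuo-6 values, with a log2 fold of 0.76 ± 0.10 (adjusted p = 0.000892). In itr-1 tbb-6 averaged 20.5 TPM and in N2 3.54 TPM. The regulator gene atfs-1 averaged 88.9 ± 6.65 TPM in the double mutant and 69.0 ± 3.05 TPM in nuo-6 (SD, n = 3 each), a log2 fold of 0.36 ± 0.08 (adjusted p = 0.00954). After median-of-ratios scaling atfs-1 no longer passed the test (adjusted p = 0.0907). The import receptor genes tomm-20 and tomm-22 were the 2 lower members, with log2 folds of -0.45 ± 0.05 and -0.46 ± 0.07 (adjusted p = 0.000384 and 0.00131), and after median-of-ratios scaling tomm-40 and timm-17B.1 were called lower too (adjusted p = 0.0164 and 0.0299).

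Of 30 genes for mitochondrial fission, fusion, inner membrane shape and mitophagy, 2 were higher and 4 lower, beside 10.4% higher and 5.6% lower among all genes. The number lower was 2 without nuo-6 replicate 3 and 7 after median-of-ratios scaling. The fission gene drp-1 had 59.6, 58.2 and 59.4 TPM in the double mutant and 53.2, 55.9 and 55.2 TPM in nuo-6. Its groups did not overlap, but the log2 fold of 0.11 ± 0.06 did not pass the test (adjusted p = 0.275). The fusion gene fzo-1 had a log2 fold of 0.07 ± 0.06 (adjusted p = 0.455, and -0.01 after median-of-ratios scaling) and the inner-membrane fusion gene eat-3 one of -0.20 ± 0.07 (adjusted p = 0.0676, and 0.00671 after median-of-ratios scaling, where it was called). The 2 higher genes, allo-1 and sqst-1, encode autophagy adaptors, the first known for the removal of paternal mitochondria in the embryo. Their log2 folds were 0.54 ± 0.07 and 0.79 ± 0.13 (adjusted p = 0.000774 and 0.00263).

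The receptor's own pathway held calls at a share below that of all genes. The list of 28 genes holds phospholipases C, InsP3 kinases and phosphatases, diacylglycerol kinases, protein kinases C, and other genes such as itr-1 and G protein genes. Of the 28, 2 were higher (7.14%), 0 were lower, and 26 did not pass the test, beside 10.4% higher and 5.6% lower among all genes. At an unadjusted p under 0.05 limma put 6 higher and 0 lower. Among the higher genes was egl-8, the phospholipase C beta. Its transcript had 35.1, 33.9 and 36.9 TPM in the double mutant and 28.9, 31.4 and 30.1 TPM in nuo-6, with a log2 fold of 0.22 ± 0.06 (adjusted p = 0.0275). It did not pass after median-of-ratios scaling (adjusted p = 0.181), under which 0 of the 28 genes were called. Without double mutant replicate 1 the count was 0, and without any 1 of the other libraries it was 1, except for double mutant replicate 2, without which it was 3. The phospholipase C gamma gene plc-3 had a log2 fold of 0.22 ± 0.10 (adjusted p = 0.168), and lfe-2, an InsP3 kinase, one of -0.05 ± 0.06 (adjusted p = 0.571).

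Among 45 genes that store, pump or carry calcium, 3 were higher (6.67%) and 4 lower (8.89%), which is near the 15.9% called among all genes. Without double mutant replicate 2 the number higher was 6. Both luminal buffers of the store were called, in opposite directions. Calreticulin, encoded by crt-1 and the calcium-binding chaperone of the endoplasmic reticulum, had 1627, 1563 and 1836 TPM in the double mutant and 1280, 1239 and 1134 TPM in nuo-6, with a log2 fold of 0.46 ± 0.07 (adjusted p = 0.0019). Calsequestrin, encoded by csq-1 and the buffer of the muscle store, had 248, 227 and 252 TPM in the double mutant and 322, 312 and 303 TPM in nuo-6, with a log2 fold of -0.37 ± 0.05 (adjusted p = 0.000645). The ranges were separate in both genes. The mean level of crt-1 was 1694 TPM in itr-1 and 1661 TPM in N2, close to the double mutant, and its difference between the comparisons was called.

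The other calcium genes called were cal-2, a calmodulin-like protein, and rcan-1, an inhibitor of calcineurin, with log2 folds of 0.54 and 0.44 (rcan-1 at an adjusted p of 0.096 after median-of-ratios scaling), and the lower genes unc-36, calu-1 and jph-1. The gene unc-36, a subunit of the voltage-gated calcium channel, had a log2 fold of -0.54 ± 0.11 (adjusted p = 0.00993). The junctophilin gene jph-1, whose product ties store to surface membrane in muscle, had one of -0.29 (adjusted p = 0.031). No call was made for mcu-1, the mitochondrial calcium uniporter (log2 fold 0.01 ± 0.10), for its gatekeeper micu-1 (0.14 ± 0.07), for the ryanodine receptor gene unc-68 (-0.07 ± 0.07) or for the store's pump sca-1 (0.06 ± 0.07). Their adjusted p-values were 0.951, 0.182, 0.487 and 0.598.

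Of 46 genes for the muscle sarcomere and its attachments, 27 were lower in the double mutant, 0 were higher and 19 did not pass the test, with a median log2 fold of -0.24. They took 1.37% to 1.41% of transcripts in the double mutant libraries and 1.76% to 1.80% in the nuo-6 libraries. The share was 1.59% to 1.62% in itr-1 and 1.87% to 1.92% in N2, so the double mutant held the lowest share of the 4 strains. After median-of-ratios scaling 31 were lower, and with single libraries left out 19 to 23 were, fewest without nuo-6 replicate 3. In whole animals fewer cells of a type and less RNA per cell cannot be told apart.

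The body wall troponin C gene pat-10, the calcium sensor of contraction, had the largest loss in TPM among the named genes, with 2071, 1955 and 1906 TPM in the double mutant and 2933, 2901 and 2988 TPM in nuo-6. The gap between the groups was over 800 TPM, and the log2 fold was -0.57 ± 0.05 (adjusted p = 6.58e-05). The troponin T gene tnt-2 had 634, 628 and 649 TPM in the double mutant and 935, 894 and 933 TPM in nuo-6, with a log2 fold of -0.53 ± 0.04 (adjusted p = 9.83e-06). The calponin-like gene clik-1 had 508, 482 and 496 TPM in the double mutant and 716, 687 and 689 TPM in nuo-6, with a log2 fold of -0.49 ± 0.04 (adjusted p = 2.25e-05). Troponin C, troponin T and calponin-like genes were thus lower by a similar step.

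Among the myosin heavy chain genes of muscle, unc-54 passed the test, while myo-1, myo-2 and myo-3 did not. The body wall gene unc-54 had 800, 808 and 820 TPM in the double mutant and 1036, 990 and 1007 TPM in nuo-6, with a log2 fold of -0.32 ± 0.05 (adjusted p = 0.0012), and the paramyosin gene unc-15 had the same log2 fold of -0.32 (adjusted p = 0.000405). A second body wall myosin, myo-3, did not pass the test (log2 fold -0.16, adjusted p = 0.121). The pharyngeal markers myo-2, myo-1 and tnc-2 had log2 folds of 0.12, 0.10 and 0.01 (adjusted p = 0.293, 0.301 and 0.936). The difference between body wall and pharyngeal genes was not tested.

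Actin and its regulators gave calls in both directions as deposited. Of 76 genes on the non-muscle actomyosin list, 9 were higher and 7 lower as deposited, beside 10.4% higher and 5.6% lower among all genes. After median-of-ratios scaling 0 were higher and 11 lower. Leaving out any 1 library except nuo-6 replicate 1 gave 0 to 4 higher, with 0 without double mutant replicate 1, 1 without nuo-6 replicate 2 or 3, 2 without double mutant replicate 3 and 4 without double mutant replicate 2. The tropomyosin gene lev-11 had 1451, 1454 and 1420 TPM in the double mutant and 1806, 1832 and 1866 TPM in nuo-6, with a log2 fold of -0.35 ± 0.03 (adjusted p = 0.000124). The actin genes act-1, act-3 and act-4 had log2 folds of -0.40 ± 0.04, -0.32 ± 0.04 and -0.35 ± 0.04 (adjusted p = 0.000183, 0.000269 and 0.000215). Act-1 had 1468, 1437 and 1423 TPM in the double mutant and 1917, 1877 and 1919 TPM in nuo-6. The actin genes are near-identical copies, so the split of reads among them is uncertain, and actin and tropomyosin also serve body wall muscle. Non-muscle myosin genes did not pass the test as deposited, with log2 folds of -0.36 ± 0.13 for nmy-1 (adjusted p = 0.0892, and 0.025 after median-of-ratios scaling) and 0.26 ± 0.12 for nmy-2 (adjusted p = 0.163), nor did the myosin phosphatase subunit gene mel-11 (0.06 ± 0.09, adjusted p = 0.662).

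The innate immunity list had the largest share of higher genes of all lists. Of 66 genes on the innate immunity list, which holds lysozymes, saposin-like peptides, cathepsins and infection-response genes, 28 were higher and 10 lower, beside 10.4% higher and 5.6% lower among all genes. The median log2 fold was 0.39, and 3 members had reached the minimum through 1 group alone. The summed share was 2.27% to 2.84% in the double mutant and 1.56% to 1.67% in nuo-6. After median-of-ratios scaling 22 were higher and 10 lower. Among intestinal markers elt-2, the main intestinal transcription factor, had a log2 fold of 0.69 ± 0.17 (adjusted p = 0.0184), vha-6, a proton pump subunit of the gut surface, one of 0.43 ± 0.10 (adjusted p = 0.0137, and 0.052 after median-of-ratios scaling), and ges-1, a gut esterase, one of 0.26 ± 0.10 (adjusted p = 0.113). The part of these markers in the rise of the list was not tested.

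Saposin-like genes encode small lytic peptides. The gene spp-9 had 24.2, 25.4 and 17.9 TPM in the double mutant, against 0, 0.298 and 0.367 TPM in nuo-6. Every double mutant library was far above every nuo-6 library, with a log2 fold of 4.26 ± 0.20 (adjusted p = 5e-07). The gene spp-12 had 15.9, 7.93 and 11.1 TPM in the double mutant, against 0.316, 0 and 0.481 TPM in nuo-6, and a log2 fold of 3.29 ± 0.24 (adjusted p = 1.16e-05). Both spp-9 and spp-12 had reached the minimum through the double mutant alone. The abundant spp-14 had the largest gain in TPM among the named genes, with 5133, 4436 and 5647 TPM in the double mutant and 1911, 2245 and 2202 TPM in nuo-6. The lowest double mutant value stood well above the highest nuo-6 value, and the log2 fold was 1.26 ± 0.10 (adjusted p = 2.86e-05).

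**Figure D3:**
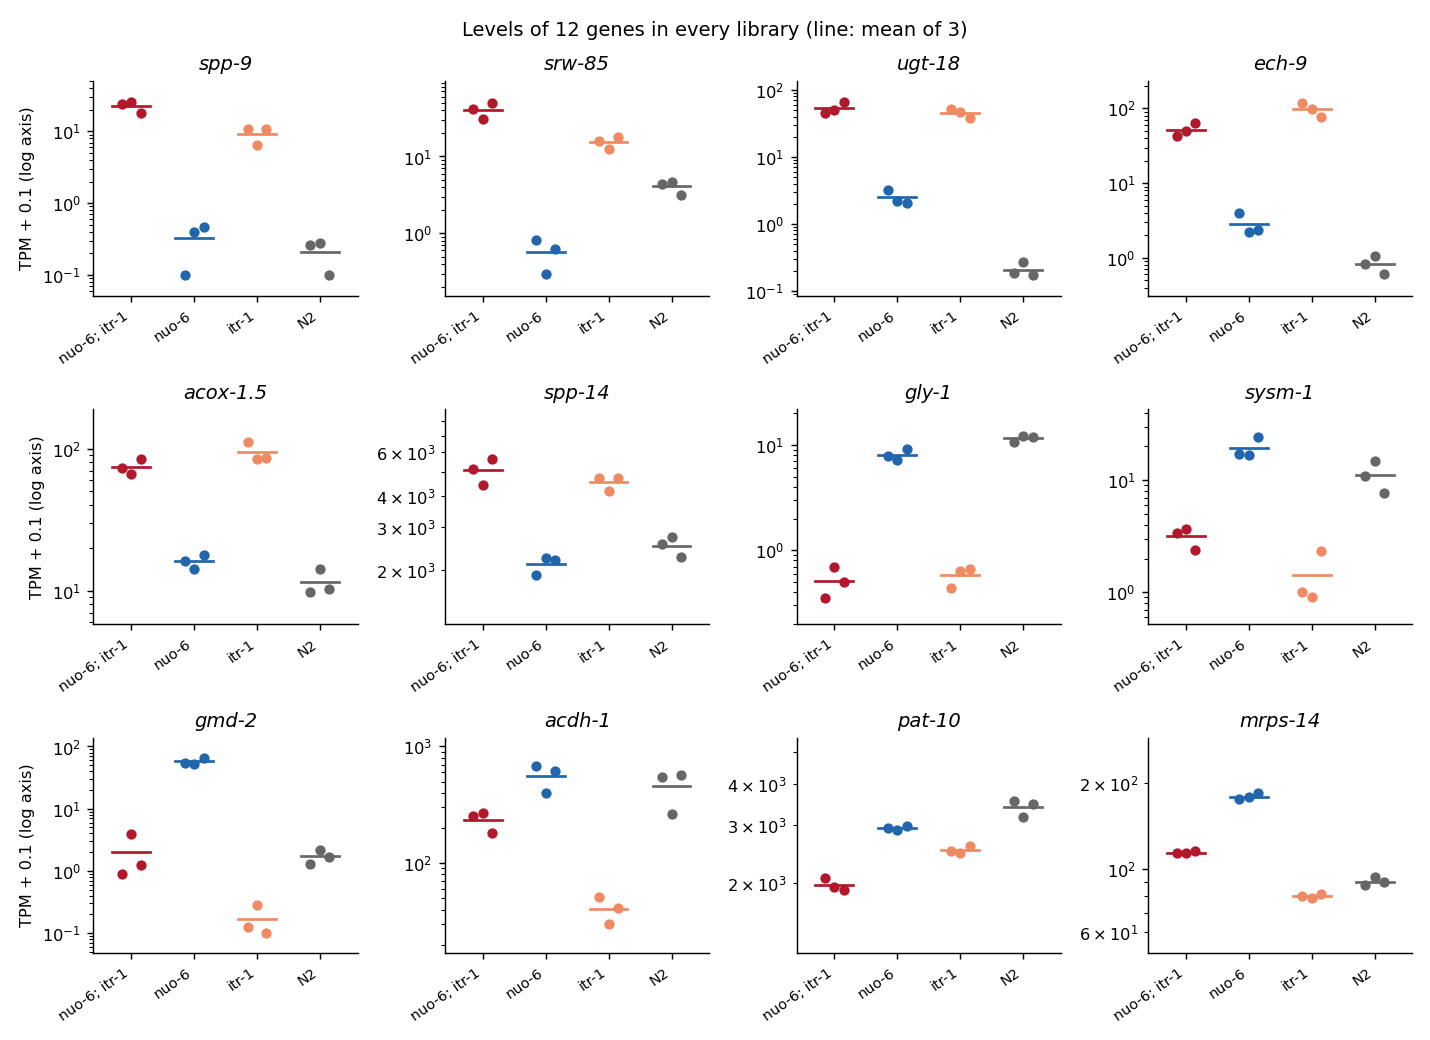
TPM + 0.1 on a log axis for 12 genes in every library of nuo-6; itr-1, nuo-6, itr-1 and N2, with a line at the mean of the 3 libraries of a strain. In all 12 genes the double mutant and nuo-6 libraries do not overlap; spp-9, srw-85, ugt-18, ech-9, acox-1.5 and spp-14 are higher in the double mutant and the other 6 are lower.

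Several named genes encode proteases of the gut lysosome and lumen. The aspartyl protease gene asp-6 had 2478, 2223 and 2804 TPM in the double mutant and 1207, 1214 and 1250 TPM in nuo-6, a log2 fold of 1.02 ± 0.10 (adjusted p = 9.55e-05). The related asp-1 had 3071, 2835 and 3708 TPM in the double mutant and 1904, 2099 and 2124 TPM in nuo-6 (log2 fold 0.64 ± 0.10, adjusted p = 0.00219). A further aspartyl protease-like gene, hrg-7, known as a secreted signal of haem supply, had 2323, 2123 and 2608 TPM in the double mutant and 1407, 1536 and 1448 TPM in nuo-6 (log2 fold 0.68 ± 0.13, adjusted p = 0.00514). In all 3 genes the groups did not overlap. The cathepsin B-like gene cpr-2 had 4.51, 3.83 and 4.61 TPM in the double mutant and 0.208, 0.241 and 0.06 TPM in nuo-6 (log2 fold 2.18 ± 0.13, adjusted p = 3.43e-06), and had reached the minimum through the double mutant alone.

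Lysozyme genes, whose products break bacterial walls, went both ways. The gene lys-4 had 263, 212 and 300 TPM in the double mutant and 57.2, 66.9 and 63.6 TPM in nuo-6, a log2 fold of 2.02 ± 0.14 (adjusted p = 9.83e-06). The gene lys-1, chosen after its values were seen, had 387, 398 and 410 TPM in the double mutant and 619, 613 and 600 TPM in nuo-6, a log2 fold of -0.62 ± 0.05 (adjusted p = 2.24e-05). The invertebrate-type lysozyme gene ilys-5 had 5.04, 16.4 and 10.2 TPM in the double mutant and 34, 60.1 and 53.8 TPM in nuo-6 (log2 fold -2.21 ± 0.32, adjusted p = 0.00126). Among infection-response genes sysm-1 had 3.29, 3.58 and 2.3 TPM in the double mutant and 16.9, 16.6 and 24.1 TPM in nuo-6 (log2 fold -2.31 ± 0.27, adjusted p = 0.000358).

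C-type lectins are secreted sugar-binding proteins, many of them induced by bacteria. Of 99 tested, 23 were higher and 10 lower, and 4 had reached the minimum through 1 group alone. The gene clec-60 had 15.7, 17.3 and 19 TPM in the double mutant and 0.943, 0.898 and 0.989 TPM in nuo-6, a log2 fold of 3.23 ± 0.19 (adjusted p = 3.14e-06), and was tested through the double mutant libraries alone. The gene clec-52 had 17.7, 13.4 and 20.9 TPM in the double mutant and 2.67, 1.8 and 2.43 TPM in nuo-6 (log2 fold 2.46 ± 0.24, adjusted p = 0.000131). In the other direction, the name clec-209 covers a pair of gene identifiers on chromosome V. Copy WBGene00021224 averaged 1.07 ± 0.206 TPM in the double mutant and 10.5 ± 2.59 TPM in nuo-6, and copy WBGene00018910 averaged 1.06 ± 0.572 TPM in the double mutant and 10.1 ± 2.43 TPM in nuo-6 (SD, n = 3 each). Reads of such copies can be shared between them, so the pair is better read as 1 result.

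Peroxisomes shorten very long fatty acids and the side chains of ascaroside pheromones, and 10 of 30 genes for these steps were higher and 3 lower. Without nuo-6 replicate 2 or 3, or double mutant replicate 1 or 3, 6 were higher. The gene ech-9, for an enoyl-CoA hydratase, had 42.4, 49.6 and 64 TPM in the double mutant and 3.89, 2.1 and 2.29 TPM in nuo-6, a log2 fold of 3.83 ± 0.21 (adjusted p = 1.77e-06). The acyl-CoA oxidase gene acox-1.5 had 73.2, 66.1 and 84.4 TPM in the double mutant and 16, 14.2 and 17.7 TPM in nuo-6, a log2 fold of 2.16 ± 0.15 (adjusted p = 1.08e-05). The transporter gene pmp-1 averaged 120.0 ± 12.7 TPM in the double mutant and 44.2 ± 6.91 TPM in nuo-6 (SD, n = 3 each; log2 fold 1.43 ± 0.13, adjusted p = 0.000102). All 3 were also higher in itr-1 than in N2, and for ech-9 and acox-1.5 that rise was the larger one, with log2 folds of 5.82 and 2.95.

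Of 52 genes for fatty acid synthesis, desaturation, transport and storage, 16 were higher and 5 lower, with 10 higher after median-of-ratios scaling, 10 without nuo-6 replicate 3 and 9 without double mutant replicate 3. The fatty acid and retinol binding gene far-3 had 143, 179 and 174 TPM in the double mutant and 41.5, 43.4 and 37.8 TPM in nuo-6, a log2 fold of 1.98 ± 0.17 (adjusted p = 3.75e-05). The desaturase gene fat-4, which acts late in making polyunsaturated fatty acids, had 404, 465 and 429 TPM in the double mutant and 300, 283 and 298 TPM in nuo-6 (log2 fold 0.56 ± 0.06, adjusted p = 0.000251). Its partners fat-2 and fat-1, named after their values were seen, had log2 folds of 0.61 ± 0.08 and 0.61 ± 0.09 (adjusted p = 0.000563 and 0.00106). None of these 3 desaturase genes was higher in itr-1 than in N2, where their log2 folds were -0.19, 0.00 and 0.08, and for each the difference between the comparisons was called.

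Among genes for the chemical modification of foreign and fat-soluble molecules more were called higher than lower as deposited, and most did not pass the test. Of 54 cytochrome P450 genes, which oxidise such molecules, 14 were higher and 1 lower, with 9 higher without double mutant replicate 1. Among 56 UDP-glucuronosyltransferase genes, which attach sugars to them, 11 were higher and 5 lower, and among 43 glutathione S-transferase genes 7 were higher and 4 lower. The 11 glucuronosyltransferase genes became 5 without nuo-6 replicate 3 or double mutant replicate 3 and 6 without nuo-6 replicate 1 or double mutant replicate 1. The 7 glutathione transferase genes became 3 without nuo-6 replicate 3, double mutant replicate 1 or double mutant replicate 3. The gene ugt-18 had 45.6, 50.3 and 66.9 TPM in the double mutant and 3.06, 2.13 and 1.95 TPM in nuo-6, a log2 fold of 4.03 ± 0.16 (adjusted p = 2.22e-07). The P450 gene cyp-13A7 had 30.9, 15.7 and 21.9 TPM in the double mutant and 7.38, 2.39 and 3.87 TPM in nuo-6, a log2 fold of 2.16 ± 0.29 (adjusted p = 0.000889). In itr-1 it averaged 0.193 TPM, and N2 libraries averaged 0.0373 TPM of it. The glutathione transferase gene gst-10 had 69.7, 88.2 and 69.7 TPM in the double mutant and 162, 182 and 207 TPM in nuo-6, a log2 fold of -1.27 ± 0.15 (adjusted p = 0.000399).

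Most of the called genes for the breakdown of branched-chain amino acids and propionate were lower, but not all. Of 26 genes 10 were lower and 3 higher, with a median log2 fold of -0.13, and 1 was higher after median-of-ratios scaling. The 3 higher genes, named after their values were seen, were hacd-1, pcca-1 and mmcm-1. Of these only hacd-1 was called after median-of-ratios scaling. The gene bckd-1B, for a subunit of the dehydrogenase that commits branched-chain carbon to breakdown, averaged 97.4 ± 1.66 TPM in the double mutant and 135 ± 2.37 TPM in nuo-6 (SD, n = 3 each), a log2 fold of -0.47 ± 0.04 (adjusted p = 0.000113). The genes dbt-1, for another subunit of that enzyme, and mccc-2, for a carboxylase of leucine breakdown, had log2 folds of -0.43 and -0.39 (adjusted p = 0.000259 and 0.000285). The acyl-CoA dehydrogenase gene acdh-1, the first step of the propionate shunt, had 255, 268 and 180 TPM in the double mutant and 674, 397 and 612 TPM in nuo-6, a log2 fold of -1.24 ± 0.32 (adjusted p = 0.0228). In itr-1 acdh-1 averaged 40.7 TPM and in N2 460 TPM, a log2 fold of -3.42, and its difference between the comparisons was called.

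In the tricarboxylic acid cycle 7 of 22 genes were lower and 0 higher, with 2 lower without nuo-6 replicate 2 or double mutant replicate 1 and 3 without nuo-6 replicate 3. The succinyl-CoA ligase gene sucg-1 had a log2 fold of -0.53 ± 0.07 (adjusted p = 0.000546). Glycolysis and gluconeogenesis had 3 genes higher and 5 lower of 30 as deposited, and 0 higher and 12 lower after median-of-ratios scaling. Without nuo-6 replicate 3 0 were higher and 2 lower, and without nuo-6 replicate 2 or double mutant replicate 1 3 were lower. Of 23 genes of the methionine and folate cycles 1 was higher and 5 lower, with 0 higher after median-of-ratios scaling and 3 lower without nuo-6 replicate 2 or 3. The phosphoethanolamine methyltransferase gene pmt-2, which uses S-adenosylmethionine to make phosphocholine, had 182, 177 and 197 TPM in the double mutant and 256, 268 and 273 TPM in nuo-6 (log2 fold -0.52 ± 0.05, adjusted p = 0.000112).

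Stress programmes outside mitochondria gave mixed counts. In the endoplasmic reticulum list, 11 of 32 genes were higher and 4 lower as deposited, and 5 were higher and 4 lower after median-of-ratios scaling. Without nuo-6 replicate 3 or double mutant replicate 3 6 were higher. The protein disulfide isomerase gene pdi-3 had 682, 669 and 737 TPM in the double mutant and 565, 559 and 535 TPM in nuo-6 (log2 fold 0.33 ± 0.05, adjusted p = 0.00126). The chaperone gene hsp-4, the usual reporter of endoplasmic reticulum stress, had a log2 fold of 0.24 ± 0.16 (adjusted p = 0.328). The translocon gene sec-61.G was among the lower ones, with a log2 fold of -0.39 (adjusted p = 0.00075).

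In the cytosolic heat shock list 1 of 35 genes was higher and 0 lower, with 0 higher after median-of-ratios scaling. Of 34 insulin-pathway genes and targets of the transcription factor DAF-16, 10 were higher and 3 lower. The target gene dod-17 had 13.7, 13.2 and 13.6 TPM in the double mutant and 36.2, 32.2 and 32.9 TPM in nuo-6 (log2 fold -1.26 ± 0.06, adjusted p = 5.2e-07), while the catalase gene ctl-1 had a log2 fold of 0.78 (adjusted p = 0.000413). Of 38 oxidative stress and SKN-1 genes 7 were higher and 5 lower, beside 10.4% higher and 5.6% lower among all genes. The gene cysl-2, whose product handles cyanide and hydrogen sulfide, had 380, 353 and 465 TPM in the double mutant and 158, 208 and 153 TPM in nuo-6 (log2 fold 1.21 ± 0.12, adjusted p = 0.000184). It averaged 62.1 TPM in itr-1 and 79.3 TPM in N2, and its difference between the comparisons was called. The mitochondrial manganese superoxide dismutase gene sod-2, named after its values were seen, had a log2 fold of -0.24 ± 0.05 (adjusted p = 0.00492).

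Cuticle collagen genes are expressed by larvae in waves around each moult. Of 130 tested 40 were lower, 4 higher and 86 did not pass the test, with a median log2 fold of -0.49. The count was 21 lower without nuo-6 replicate 3, 23 without nuo-6 replicate 1 or double mutant replicate 3 and 26 without double mutant replicate 1. The 130 genes took 5.14% to 6.64% of transcripts in the double mutant and 7.38% to 7.69% in nuo-6. In the pair without the nuo-6 allele the direction differed, with 65 higher and 30 lower in itr-1 against N2, and 59 of the 130 genes had a more negative fold in the double mutant comparison by the test of the difference, 7 a more positive one. The collagen gene col-137 had 27.4, 25.9 and 17.5 TPM in the double mutant and 94.6, 109 and 96.8 TPM in nuo-6 (log2 fold -2.06 ± 0.26, adjusted p = 0.000533). The abundant col-133 had 844, 862 and 566 TPM in the double mutant and 1364, 1335 and 1381 TPM in nuo-6 (log2 fold -0.87 ± 0.17, adjusted p = 0.00554).

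These collagen counts stood beside the stage markers. None of the 35 oocyte and early embryo genes was called between the double mutant and nuo-6, by limma with its Benjamini-Hochberg adjustment, and their median log2 fold was 0.32. At an unadjusted p under 0.05 1 was higher and 0 lower, and after median-of-ratios scaling 0 were called. In itr-1 against N2 all 35 were higher. Of 60 sperm genes 1 was lower and 0 higher, with a median log2 fold of -0.23, whereas 50 were higher and 1 lower in itr-1 against N2, and for 40 the difference between the comparisons was called. Of 43 moulting genes 1 was higher and 4 lower, and 0 and 7 after median-of-ratios scaling. The part of developmental stage in the collagen result was not tested, and the double mutant library with the lowest stage score, replicate 3, also had the lowest level of col-137 and col-133.

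Of 6 yolk protein genes 2 were lower, with the most negative median log2 fold of any list, -2.99, and with wide spread among libraries. The gene vit-4 had 0.566, 15.6 and 1.11 TPM in the double mutant and 23.3, 76.2 and 74.7 TPM in nuo-6, a log2 fold of -3.78 ± 1.02 (adjusted p = 0.0287). The gene vit-3 had 0.376, 7.91 and 0.524 TPM in the double mutant and 10.1, 32.9 and 33.5 TPM in nuo-6 (log2 fold -3.15 ± 0.89, adjusted p = 0.0356). Double mutant replicate 2, the library with the highest stage score, was the highest of its group in both genes, and nuo-6 replicate 1, with the lowest score of its group, was the lowest. Without double mutant replicate 2 all 6 vitellogenin genes were lower, and without nuo-6 replicate 2 or 3, or double mutant replicate 1 or 3, none was called. The genes are near-identical copies in part, and their start marks the passage to adulthood.

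Nuclear hormone receptors are transcription factors switched by small fat-soluble molecules. Of 179 nuclear hormone receptor genes 41 were higher and 1 lower, and 18 were higher and 2 lower after median-of-ratios scaling. The receptor gene nhr-113 had 10.5, 8.85 and 10.6 TPM in the double mutant and 3.04, 2.16 and 2.25 TPM in nuo-6 (log2 fold 1.66 ± 0.19, adjusted p = 0.000308). The 41 became 13 without nuo-6 replicate 3, double mutant replicate 1 or double mutant replicate 3, 15 without nuo-6 replicate 2 and 27 without nuo-6 replicate 1. Of 123 neuropeptide and insulin-like genes 24 were higher and 3 lower, with 12 higher after median-of-ratios scaling. The 24 became 10 without nuo-6 replicate 3, 14 without double mutant replicate 3 and 41 without double mutant replicate 2. The peptide gene flp-33 had 30.7, 26.7 and 27.3 TPM in the double mutant and 17.7, 16.6 and 14.4 TPM in nuo-6 (log2 fold 0.76 ± 0.10, adjusted p = 0.000932). The neuronal markers unc-119, rab-3 and snb-1 had log2 folds of 0.06, 0.05 and 0.11 and were not called.

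Other named genes also had large folds. The chemoreceptor-like gene srw-85 had 41.2, 30.3 and 49.3 TPM in the double mutant and 0.708, 0.197 and 0.517 TPM in nuo-6, a log2 fold of 4.80 ± 0.20 (adjusted p = 2.77e-07), and had reached the minimum through the double mutant alone. It averaged 15.4 TPM in itr-1 and 3.97 TPM in N2. The gene rab-11.2, for a small GTPase of membrane recycling, had 57.6, 21.2 and 34.7 TPM in the double mutant and 3.17, 0.545 and 1.06 TPM in nuo-6 (log2 fold 3.93 ± 0.40, adjusted p = 0.000182), and only 1.2 TPM on average in itr-1. The abundant ribosomal gene rpl-12 had 6182, 6947 and 6400 TPM in the double mutant and 5412, 5423 and 5298 TPM in nuo-6, but its log2 fold of 0.27 ± 0.07 (adjusted p = 0.0234) did not pass after median-of-ratios scaling (adjusted p = 0.215).

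Among the falls, gmd-2, for a GDP-mannose dehydratase that starts the making of GDP-fucose, had 0.804, 3.87 and 1.16 TPM in the double mutant and 54.8, 52.9 and 65.9 TPM in nuo-6. All nuo-6 libraries were more than 10-fold above all double mutant libraries, with a log2 fold of -4.46 ± 0.30 (adjusted p = 6.83e-06). In itr-1 gmd-2 averaged 0.071 TPM and in N2 1.62 TPM, so high levels were seen in nuo-6 only. The glycosyltransferase gene gly-1 had 0.254, 0.593 and 0.403 TPM in the double mutant and 7.82, 7.04 and 8.95 TPM in nuo-6 (log2 fold -2.66 ± 0.12, adjusted p = 4.39e-07), and had reached the minimum through nuo-6 alone. In itr-1 gly-1 averaged 0.482 TPM and in N2 11.5 TPM, and the difference between the comparisons had a log2 value of 0.41 ± 0.17 (adjusted p = 0.138). Among the abundant genes dct-16 had 1863, 1891 and 2175 TPM in the double mutant and 2385, 2642 and 2949 TPM in nuo-6 (log2 fold -0.43 ± 0.08, adjusted p = 0.00551).

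The same allele was then read without the nuo-6 mutation. Between itr-1 and N2, which share no library with the first comparison, 6006 of the same 14859 genes changed (40.4%), 4373 higher (29.4%) and 1633 lower (11%). After median-of-ratios scaling 2582 were higher and 3160 lower, and after quantile normalization 2027 were higher and 2943 lower. The itr-1 and N2 libraries differ in stage score without overlap, and without any 1 of their libraries 4099 to 5916 genes changed, with 2796 higher without N2 replicate 1. Both comparisons called 1339 genes, which is 56.5% of the calls in the double mutant and 22.3% of those in itr-1. Of these 1246 had the same direction and 93 the opposite one.

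The difference between the comparisons was tested gene by gene, as the fold of the double mutant over nuo-6 minus the fold of itr-1 over N2 on the log2 scale. It was called for 1807 genes (12.2%), 548 with a higher value (3.69%) and 1259 with a lower one (8.47%). After median-of-ratios scaling there were 977 and 1157, and after quantile normalization 1076 and 978. When the stage score entered the model as a covariate 792 genes were called. Leaving out nuo-6 replicate 2 gave 860, nuo-6 replicate 3 920, N2 replicate 1 927, double mutant replicate 1 1055, N2 replicate 3 1122 and itr-1 replicate 2 1203. Of the 2370 genes changed between the double mutant and nuo-6, 475 also had a called difference.

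**Figure D4:**
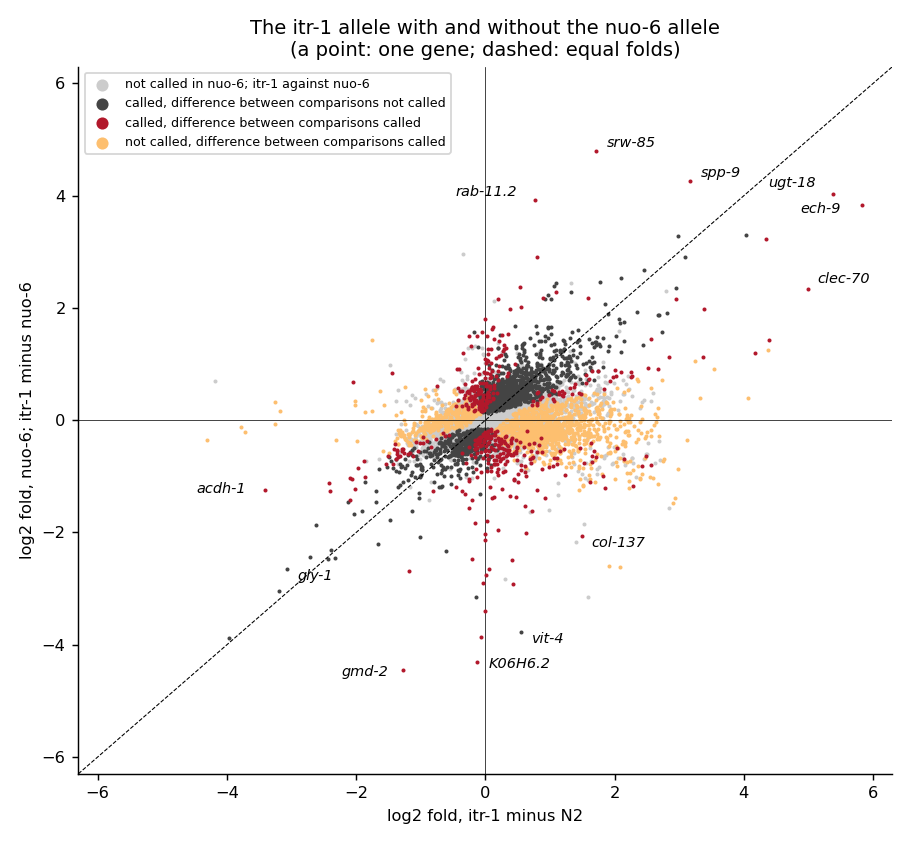
Log2 fold of nuo-6; itr-1 minus nuo-6 (vertical) against that of itr-1 minus N2 (horizontal) for 14859 genes, on the log2(TPM + 1) scale, with a dashed line at equal folds and colours for the calls. Srw-85, rab-11.2 and spp-9 lie above the line, gly-1 near it, and gmd-2, K06H6.2, vit-4 and col-137 far below it.

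Genes of both kinds were seen among the named ones. For the saposin-like gene spp-12, the aspartyl protease gene asp-6 and gly-1 the difference was not called (adjusted p = 0.169, 0.523 and 0.138). This does not show that the folds were equal, and for spp-12 the difference had a log2 value of -0.75 ± 0.33. Both spp-12 and gly-1 had reached the minimum through 1 group alone, so their p-values add nothing to their levels. The dosage compensation gene dpy-27, chosen after its values were seen, had 35, 32.8 and 37 TPM in the double mutant and 11.8, 11.8 and 12.2 TPM in nuo-6, and it averaged 34 TPM in itr-1 and 13.1 TPM in N2. Its log2 folds were 1.47 ± 0.07 and 1.31 ± 0.07 (adjusted p = 7.39e-07 and 1.1e-06), with no call for the difference (adjusted p = 0.344). By contrast asp-12, another aspartyl protease gene, averaged 6.83 TPM in the double mutant and 2.41 TPM in nuo-6, but 51.2 TPM in itr-1 and 1.86 TPM in N2, and its difference had a log2 value of -2.98 ± 0.28 (adjusted p = 0.000118).

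Among the named genes with the largest negative differences were the nspb genes, a nematode family of small peptides with near-identical copies. The gene nspb-2 averaged 9.43 ± 2.74 TPM in the double mutant and 22 ± 2.35 TPM in nuo-6, but 24 TPM in itr-1 and 4.29 TPM in N2, and nspb-10 had log2 folds of -0.79 in the double mutant and 2.56 in itr-1. The prion-like gene abu-6 fell in the double mutant (log2 fold -0.69 ± 0.10, adjusted p = 0.00127) and rose in itr-1 (log2 fold 2.15, adjusted p = 4.3e-07). In the other direction spig-6, named by the rule for positive differences, averaged 5.9 ± 1.8 TPM in the double mutant and 1.41 ± 0.262 TPM in nuo-6, against 1.15 TPM in itr-1 and 1.36 TPM in N2 (SD, n = 3).

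Of 44 autophagy and lysosome genes 4 were higher and 0 lower, beside 10.4% higher and 5.6% lower among all genes. The number higher was 2 after median-of-ratios scaling, 1 without nuo-6 replicate 3, 2 without double mutant replicate 3 and 9 without double mutant replicate 2. Of 17 pals genes, known from the response to intracellular parasites, 6 were higher (35.3%, beside 10.4% among all genes) and 0 lower, with 2 or 3 higher without nuo-6 replicate 2 or 3 or double mutant replicate 1 or 3. In the tubulin list 4 of 15 were higher (26.7%), in the aminoacyl-tRNA synthetase list 3 of 32 were higher and 1 lower, and in the hedgehog-related list 4 of 62 were higher and 5 lower. After median-of-ratios scaling the synthetase counts turned to 1 higher and 4 lower, and 11 hedgehog-related and 9 abu and pqn genes were lower. Of 61 abu and pqn genes 3 were higher and 5 lower, of 23 germ granule genes 1 was lower, and none of the 33 proteasome genes was called by limma, while 2 were lower at an unadjusted p under 0.05 and 3 after median-of-ratios scaling. Without double mutant replicate 1 the tubulin count was 1, the synthetase counts were 1 and 0, the hedgehog-related counts 2 and 3 and the germ granule count 0, and without nuo-6 replicate 3 the abu and pqn counts were 1 and 2.

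A compact run of genes on chromosome V was lower in all but 1 of its tested members. It was chosen after its values were seen and spans 56.2 kb, from nhr-155 to ZK488.5 (chromosome V, 539460 to 595677, WBcel235), with 17 protein-coding genes. Of these 11 were tested, 10 were lower in the double mutant, 1 was higher and 6 did not reach the minimum. Among the lower genes C14C6.8, K06H6.4, nstp-7, ZK488.6 and ZK488.5 had reached the minimum through nuo-6 alone. A lower level in the double mutant was thus a condition of testing them, and their calls add nothing to their levels. The 10 lower genes kept 3.12% to 20.1% of their mean nuo-6 level. None exceeded 0.327 TPM in any library of itr-1 or N2, and the highest levels were those of nuo-6.

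In this run K06H6.2 had 1.92, 8.98 and 2.96 TPM in the double mutant and 93.2, 82.3 and 114 TPM in nuo-6, a log2 fold of -4.31 ± 0.35 (adjusted p = 2.89e-05). It was listed at 0 in all 3 itr-1 libraries. The neighbouring K06H6.1 had 0.722, 3.26 and 1.3 TPM in the double mutant and 35.5, 31.8 and 43 TPM in nuo-6 (log2 fold -3.87 ± 0.26, adjusted p = 6.83e-06). The nuclear receptor gene nhr-155, at the start of the run, had 2.26, 3 and 2.82 TPM in the double mutant and 11.1, 13.9 and 15.2 TPM in nuo-6 (log2 fold -1.96 ± 0.12, adjusted p = 3.82e-06). All 10 lower genes were lowest in double mutant replicate 1, and 9 of them were highest of that group in replicate 2.

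**Figure D5:**
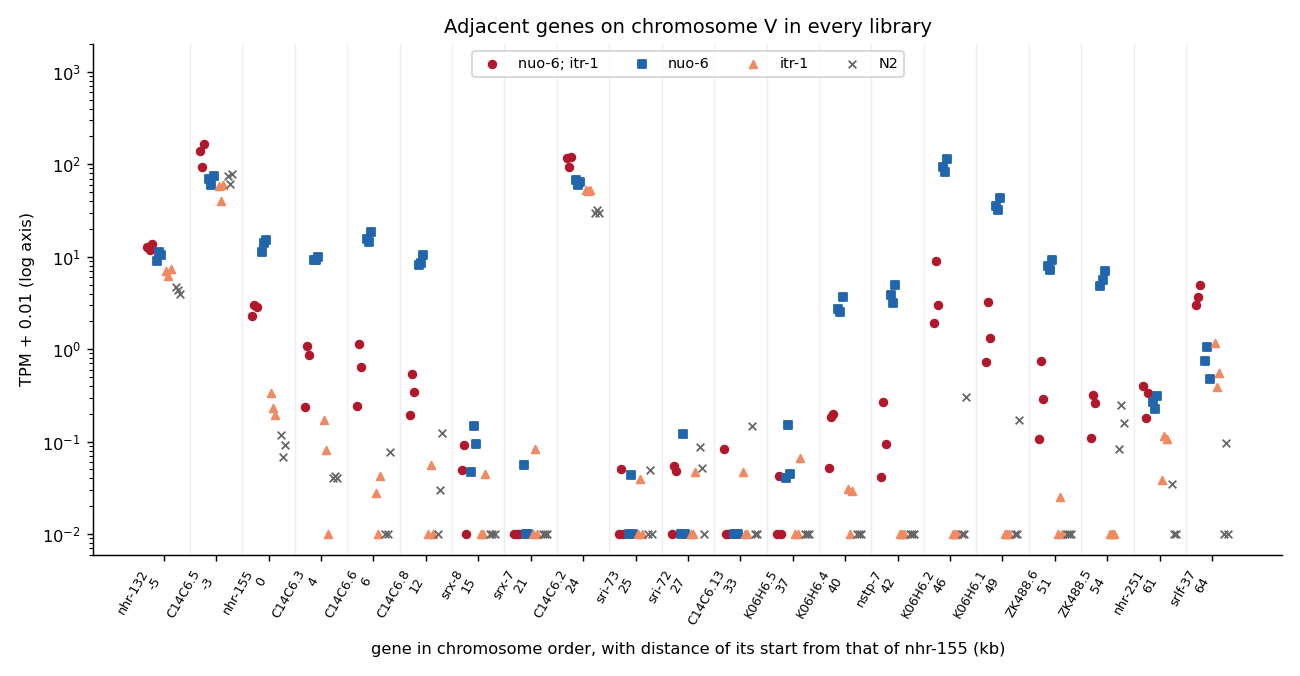
TPM + 0.01 on a log axis in every library for the protein-coding genes from nhr-132 to srlf-37 in chromosome order, with the distance of each start from that of nhr-155 in kb. From nhr-155 to ZK488.5 the nuo-6 libraries stand above all others in 10 genes, while C14C6.2 is highest in the double mutant and present in all strains.

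The gene C14C6.2 lies inside the run and was higher, with 117, 94.5 and 121 TPM in the double mutant and 66.8, 60.4 and 63.7 TPM in nuo-6 (log2 fold 0.78 ± 0.09, adjusted p = 0.000259). Across the genome 11 genes were under 1 TPM in every itr-1 and N2 library, at 5 TPM or more in every nuo-6 library and lower in the double mutant, and 8 of these lie on chromosome V. That chromosome holds 2965 of the 14859 genes tested. All of the 8 but C38D9.2 belong to the run, which was chosen after its values were seen, so the count mainly repeats the run. Of the 8, C14C6.8 and ZK488.6 had reached the minimum through nuo-6 alone. The gene C38D9.2 lies elsewhere on chromosome V. It had 3.41, 2.96 and 2.52 TPM in the double mutant and 28.3, 28.9 and 28.8 TPM in nuo-6 (log2 fold -2.91 ± 0.11, adjusted p = 2.22e-07). In the other direction 4 genes were under 1 TPM in every nuo-6 library and at 5 TPM or more in every double mutant library. They were spp-9, spp-12, clec-60 and srw-85. This rule set no limit on itr-1 and N2, and the 4 genes averaged 9.2, 17.9, 29.1 and 15.4 TPM in itr-1. All 4 had reached the minimum through the double mutant alone, so their calls add nothing to their levels.

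By chromosome the share of tested genes that changed was 13.3% on I, 15.6% on II, 15.4% on III, 14.8% on IV, 19.7% on V and 16.2% on X. It was 13.5% of 371 genes within 1 Mb of itr-1 on IV and 11.9% of 421 genes within 1 Mb of nuo-6 on I. These shares are descriptions without a test.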

How the data were processed

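The authors deposited 1 table of TPM for 46926 genes in 12 libraries, and the submitters' processing notes name the build as WBcel235. Which aligner, counter, strand setting and annotation were used is not given in the sources used here. Per the labels, RNA was made into stranded polyA-selected libraries. TPM keeps no read depth, so depth is unknown and no counting error can be given. All 46926 identifiers matched an Ensembl annotation of WBcel235, which gave names and positions.

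The test was limma 3.58.1 in R 4.3.3 on log2(TPM + 1), as 1 fit over 12 libraries with a mean per strain (8 residual degrees of freedom), a mean-dependent prior variance, and Benjamini-Hochberg adjustment at 0.05. A fold on this scale understates the change of low genes. Genes needed 1 TPM in 3 of the 6 libraries compared. The exact permutation test of 3 against 3 libraries cannot go below p = 0.1 and was not used. The fit was tested on simulated data. Alternatives changed the pseudocount, filter, scaling, variance model, libraries, a stage covariate and a replicate block. Median-of-ratios scaling divides each library by its median ratio to the gene-wise mean.

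Named genes are itr-1 and nuo-6, the 10 largest rises and falls, the 5 largest gains and losses in TPM, the 5 largest differences between comparisons each way (groups apart, named genes, limits per family), and 3 per list by adjusted p. Members of the InsP3, calcium, dynamics, UPRmt and actomyosin lists could be named freely, and tissue markers are given as a check. Other genes were named after their values were seen. The comparison, lists and rule were chosen with earlier results of these data known. A gene that the rule allowed is not reported here.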

Additional observations from a re-analysis of the deposited data

Results flagged for a closer look

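The fold of itr-1(sa73) differed between the nuo-6 and wild-type backgrounds, by the test of the difference itself, for 47 of the genes named above. The gene pcca-1, called too, is not counted. Among all genes tested the share called was 12.2%. Some genes were named for a large difference, and others for a large fold between the double mutant and nuo-6, which enters the difference. The count of 47 is thus partly set by the choice of genes and is not a share to compare with 12.2%. Some of the 47 genes had reached the minimum through the double mutant or through nuo-6 alone, and they are marked below. They had to differ between those groups to be tested, so their calls for the difference add nothing to their levels. Each value below is the log2 fold of the double mutant over nuo-6 minus the log2 fold of itr-1 over N2, and no explanation of these differences was tested.

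Genes that were higher in itr-1 than in N2 by more than in the double mutant over nuo-6 included asp-12 with -2.98, ech-9 with -1.99, tbb-6 with -1.49, far-3 with -1.40, ugt-18 with -1.36, clec-60 with -1.12, acox-1.5 with -0.79 and allo-1 with -0.48. Genes with a rise that was larger in the nuo-6 background on the log2(TPM + 1) scale included rab-11.2 with 3.16, srw-85 with 3.08, cyp-13A7 with 1.96, spig-6 with 1.62, lys-4 with 1.47, cpr-2 with 1.29 and spp-9 with 1.09. Smaller such values were 0.68 for flp-33, 0.61 for fat-2, 0.53 for fat-1, 0.45 for ctl-1 and 0.43 for crt-1. For cyp-13A7 the itr-1 and N2 means were both under 1 TPM, where this scale flattens a fold. Mean spp-9 was 0.222 TPM in nuo-6 and 0.11 TPM in N2, so its difference depends on the scale too. A larger rise in the plain ratio of TPM is not shown for either gene. The genes spp-9, srw-85, cpr-2 and clec-60 had reached the minimum through the double mutant alone, so their calls here add nothing to their levels.

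Genes that fell in the double mutant against nuo-6, and fell by less on the log2(TPM + 1) scale or did not pass the test in itr-1 against N2, included K06H6.2 with -4.19, K06H6.1 with -3.80, gmd-2 with -3.18, ZK488.5 with -2.28, nhr-155 with -2.16, mrps-14 with -0.48, dod-17 with -0.46, tomm-20 with -0.29, act-1 with -0.27, lpd-5 with -0.25, lev-11 with -0.24 and act-3 with -0.22. Of these, K06H6.2, K06H6.1, ZK488.5 and nhr-155 did not exceed 0.327 TPM in any itr-1 or N2 library. They had almost no level to lose there, so their differences mainly repeat the fall from nuo-6. The gene ZK488.5 had reached the minimum through nuo-6 alone, so its call here adds nothing to its levels. For gmd-2 the low N2 level limits how far it could fall on this scale. The folds passed the test with opposite signs in the 2 backgrounds for 9 genes. Those lower in the double mutant and higher in itr-1 were col-137 with -3.56, C38D9.2 with -3.33, nspb-2 with -3.46, nspb-10 with -3.36, abu-6 with -2.83 and col-133 with -1.75. Of these, C38D9.2 was under 1 TPM in every itr-1 and N2 library, so its rise in itr-1 rests on low values. Those higher in the double mutant and lower in itr-1 were cysl-2 with 1.56, fat-4 with 0.74 and pdi-3 with 0.50. In acdh-1 with 2.18, gst-10 with 1.14 and calu-1 with 0.30 the fall was larger in itr-1 against N2. The difference was also called for nmy-1 with -0.70, ges-1 with 0.51 and lfe-2 with -0.32, none of which passed the test between the double mutant and nuo-6.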

How the results depend on the processing

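None of 150 called single-gene log2 folds changed sign under any alternative run, but median-of-ratios scaling turned the balance of calls, and moved hsp-6, hsp-60 and fzo-1, which were not called, below 0. For the double mutant against nuo-6, array weights, whose estimation stopped before it converged, gave 6941 calls (4709 higher, 2232 lower), the stage covariate 3893 (2406 and 1487), a required fold of 2 269 (182 and 87), and median-of-ratios scaling 858 higher and 1172 lower. For itr-1 against N2, the stage covariate gave 1979 (1451 and 528), a fold of 2 1158 (961 and 197), median-of-ratios scaling 2582 and 3160, and quantile normalization 2027 and 2943. For the difference between the comparisons, array weights gave 3623 (1230 and 2393), the stage covariate 792 (166 and 626), a fold of 2 817 (92 and 725), median-of-ratios scaling 977 higher, quantile normalization 1076 higher, and leaving out all libraries numbered 2 343 higher. The cause of these shifts was not tested, except that the required fold can only remove calls.

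With single libraries left out, the double mutant against nuo-6 gave 1174 to 2499 calls (702 to 1596 higher, 472 to 903 lower). For itr-1 against N2 the range was 4099 to 5916 (2796 to 4482 and 1210 to 1633), and for the difference 860 to 2615 (201 to 753 and 659 to 1862). Without nuo-6 replicate 3, 49.1% of the calls were kept. Of the 150 folds, 23 lost their call without that library, 11 after median-of-ratios scaling and 0 with the stage covariate.

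The replicate numbers were not taken to pair the samples, since deviations of same-numbered libraries correlated at 0.17, 0.14 and 0.003 for the double mutant and nuo-6 and at 0.05, 0.42 and 0.09 for itr-1 and N2. They correlated at 0.08, 0.52 and 0.47 for the double mutant and itr-1 and at 0.12, 0.17 and 0.11 for nuo-6 and N2, and replicate 2 had the highest stage score in all 4 strains. A fit with the replicate block gave 2828 calls for the double mutant against nuo-6 (1860 higher, 968 lower). It gave 6759 for itr-1 against N2 (4988 and 1771) and 2721 for the difference (831 and 1890). TPM keeps no depth, so counting error at low values could not be separated from the spread between libraries.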
